A study of Arabidopsis thaliana with 9 samples.

Results

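The seedling transcriptome of the Arabidopsis thaliana line h3.3ko;HTR5 G34W was compared with that of wild type (Col). Of 27655 loci in the table, 18479 reached a mean of 1 TPM over the 6 libraries and are the genes compared. TPM, or transcripts per unit of 1000000, are reads per gene length scaled to the same total in each library. The groups were h3.3ko;HTR5 G34W (3 libraries), called G34W, h3.3ko;HTR5 G34R (3 libraries), called G34R, and Col, called wild type (3 libraries). Every library came from total RNA of 10-day-old seedlings, grown at 22 °C under 16 h light and 8 h dark. The names G34W and G34R stand, in standard notation, for tryptophan or arginine in place of a glycine in the HTR5 protein. Both lines carry the background marked h3.3ko, which wild type lacks, and no sample analysed here has that background together with unaltered HTR5. Effects of the substitution and of the background therefore cannot be told apart. The labels state neither how HTR5 was altered, nor the number of independent lines, nor whether seedlings were pooled or grown as separate plantings. The p-values cover the spread among these libraries, which may be technical.

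Unlike the H3 forms deposited at DNA replication, histone H3.3 is placed into chromatin throughout the cell cycle, mainly over transcribed genes. HTR4, HTR5 and HTR8 encode it in Arabidopsis. Glycine 34 lies on the histone tail close to lysine 36, whose methylation by SET-domain enzymes marks transcribed genes, and substitutions of the same glycine are known from human tumours. The TPM measure RNA, and neither histone marks nor protein were measured here.

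The wild-type coding sequence of the 3 genes around that residue shows the codon the labels refer to. The windows are 51 bases of coding sequence, 5′ to 3′, from the RefSeq annotation of the TAIR10.1 assembly, with the glycine codon in capitals. HTR4 and HTR5 lie on the minus strand of chromosome 4 and HTR8 on the minus strand of chromosome 5, and residue 34 is counted without the initiator methionine.
HTR4: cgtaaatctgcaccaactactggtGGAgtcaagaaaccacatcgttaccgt
HTR5: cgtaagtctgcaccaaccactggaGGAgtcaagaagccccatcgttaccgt
HTR8: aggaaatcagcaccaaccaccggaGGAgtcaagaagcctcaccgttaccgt
All 3 use the codon GGA. The windows of HTR4 and HTR5 differ at 5 bases, those of HTR4 and HTR8 at 9 and those of HTR5 and HTR8 at 7. Over the 411 bases of coding sequence HTR4 and HTR5 were 88.8% identical and HTR5 and HTR8 79.8%. The letters are those of the reference and not of the lines.

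HTR8 messenger RNA was nearly gone in the G34W line, HTR4 was reduced and HTR5 was not. HTR8 was at 6.69, 4.65 and 5.24 TPM in the G34W libraries, against 214, 207 and 210 TPM in wild type, and fell by 5.03 ± 0.091 on the log2 scale. HTR4 fell by 1.39 ± 0.038 and averaged 159 ± 6.45 TPM in G34W, against 418 ± 17.1 TPM in wild type (SD, n = 3 each). HTR5 averaged 380 ± 11.1 TPM in G34W and 333 ± 2.04 TPM in wild type, a difference of 0.19 that became -0.030 when libraries were scaled by the median ratio of their genes. These fold changes, and those that follow, come from limma on log2(TPM + 1) with the SE after the sign ±, and their p-values are adjusted by the Benjamini-Hochberg method over all 18479 genes. After a mean TPM, the sign ± gives the SD of 3 libraries. The addition of 1 understates the change of weakly expressed genes.

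A very large share of genes differed between the groups, and most differences were small. At an adjusted p under 0.05, 11008 genes (59.6%) differed. In the G34W line 8463 genes (45.8%) were higher and 2545 genes (13.8%) were lower than in wild type. The median log2 fold change of all tested genes was 0.20 in the deposited TPM, and 0.01 after median-ratio scaling. With that scaling 4524 genes (24.5%) were higher and 4600 (24.9%) lower. The numbers of higher and lower genes were thus near equal under one scaling and not under the other. Under both, 4524 higher genes (24.5%) and 2545 lower genes (13.8%) were called. They equal the higher genes of median-ratio scaling and the lower genes of the deposited TPM. A call under both is thus set by median-ratio scaling for higher genes and by the deposited TPM for lower genes. The balance between these numbers is therefore no separate result. Past 1 on the log2 scale under both scalings there were 397 higher genes (2.15%) and 333 lower genes (1.8%). All 3 G34W libraries lay above all 3 wild-type libraries in 9209 genes (49.8%), and below them in 2831 (15.3%). The libraries held 13569961 to 14322281 recovered reads in G34W and 12895442 to 14012397 in wild type. Pearson correlations of log2(TPM + 1) across genes were 0.992 within each group and 0.959 to 0.961 between them.

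The largest rises included several loci that have no symbol in the reference table. AT1G53200, annotated as subunit A of a TAF complex of RNA polymerase I, stood highest among genes with reads in both groups. It was at 215, 210 and 204 TPM in the G34W libraries, against 5.38, 5.32 and 5.89 TPM in wild type, a difference of 5.01 ± 0.056. The G34R libraries lay at 4.85 to 5.88 TPM, within the range of wild type or below it. AT1G53200 overlaps AT1G53190, a RING/U-box gene on the opposite strand, and the use of strand in counting is not given in the sources used here. AT1G53190 was at 21.3, 20.2 and 23.2 TPM in G34W, against 28.1, 24.7 and 25.6 TPM in wild type, so it did not share the rise.

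AT5G23115 is an annotated locus of only 29 bases on the minus strand of chromosome 5, and its sequence is shown because its TPM rest on very few reads. The coding part of 18 bases is in capitals.
AT5G23115: ttcaaagattgATGAACCCTAAGAGTTAA
It had 16, 17 and 10 reads in the G34W libraries and 0 reads in the wild-type libraries, which with a floor of 3 reads per library puts it at least 4.63-fold higher in G34W. Its 82.8, 93.5 and 52.7 TPM in G34W rest on those counts. The intervals and floors given here cover counting error only.

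Among the other large rises were genes of cell-wall, metal and specialised metabolism. The peroxidase gene AT2G38390 was at 67.1, 73.0 and 72.4 TPM in the G34W libraries, against 9.1, 10.0 and 8.57 TPM in wild type. IMS2, also known as MAM3, an enzyme that lengthens methionine side chains for glucosinolates, was at 19.7, 18.3 and 17.9 TPM in G34W, against 2.06, 1.76 and 2.03 TPM in wild type. HIS1-3, a linker histone known to respond to drought, averaged 328 ± 12.4 TPM in G34W and 53.0 ± 5.06 TPM in wild type, which is 2.61 ± 0.058 higher. The choice of the largest rises required every G34W library to lie above every wild-type library, which 49.8% of all tested genes did. LBD41, a LOB-domain factor known from low-oxygen responses, was 2.58 ± 0.084 higher in G34W, and GLP9, a germin-like protein, 2.67 ± 0.25 higher. IRT3, a zinc and iron carrier, was 2.17 ± 0.11 higher, and the lipid-transfer-like gene AT5G55450 was 2.49 ± 0.10 higher. AT4G40042, the next gene after HTR5, was at 127, 119 and 109 TPM in G34W, against 23.4, 22.6 and 19.3 TPM in wild type. Its neighbour AT4G40045 was 1.52 ± 0.091 higher, and the gene after that, AT4G40050, differed by 0.13 ± 0.065 and did not pass the test.

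The largest falls included genes of stress and ethylene pathways. AT3G44970, a cytochrome P450 gene, was at 0.106, 0.0562 and 0.215 TPM in the G34W libraries, against 38.5, 36.6 and 39.8 TPM in wild type, and fell by 5.13 ± 0.11. AT1G62510, a lipid-transfer-like gene, fell by 3.94 ± 0.11 and was at 5.23, 4.84 and 4.47 TPM in G34W, against 109, 75.6 and 84.2 TPM in wild type. AT5G24215, an uncharacterized protein, fell by 3.74 ± 0.12. The largest falls were chosen among genes whose groups did not overlap, so the lack of overlap in these genes is no separate result. P5CS1, the key enzyme of proline synthesis, was at 15.9, 16.2 and 15.6 TPM in G34W, against 127, 135 and 136 TPM in wild type. The G34R libraries held 137, 144 and 148 TPM of P5CS1, all above the wild-type libraries. G34W was 3.09 ± 0.056 lower than G34R. ACS6, an enzyme of ethylene synthesis, fell by 2.56 ± 0.051 and averaged 19.2 ± 0.947 TPM in G34W, against 118 ± 3.0 TPM in wild type. STZ, a zinc-finger repressor of salt and cold responses, fell by 2.79 ± 0.13, EXPA8, a cell-wall loosening expansin, by 2.40 ± 0.042, and LEA7, a late embryogenesis protein, by 2.41 ± 0.21.

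**Figure D1:**
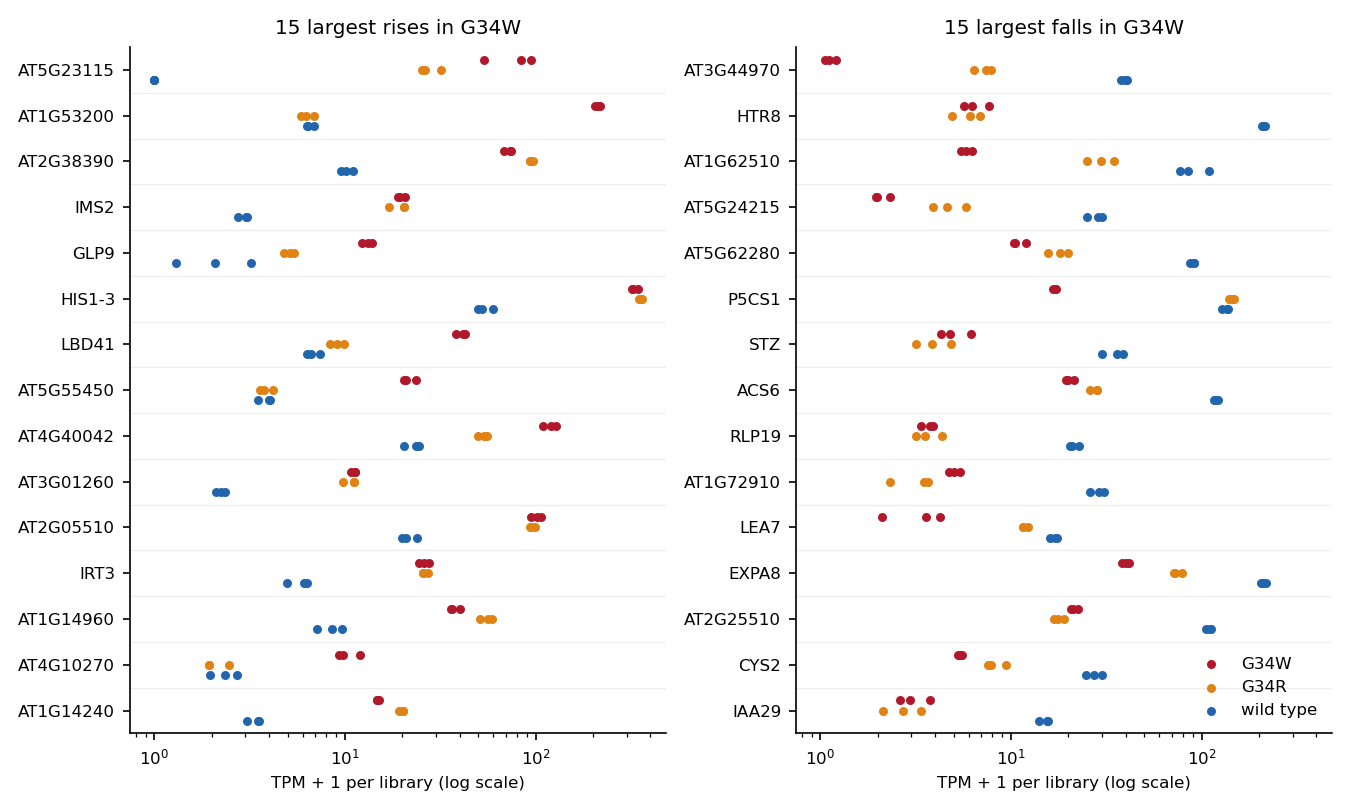
TPM + 1 on a log axis in each library for the 15 largest rises (left) and the 15 largest falls (right) among genes averaging 5 TPM or more. These genes were also chosen for an adjusted p under 0.05 and for groups that do not overlap. Red points are G34W, orange points G34R and blue points wild type, and P5CS1 lies at 15.6 to 16.2 TPM in G34W, against 137 to 148 TPM in G34R and 127 to 136 TPM in wild type.

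A set of 63 gene families was described by symbol and product-name patterns, and 59 had at least 8 tested members. The 16 that are reported in detail are the 8 with the highest share of members higher and the 8 with the highest share lower. WRKY factors tied for the last place among the higher ones with the lipoxygenase and jasmonate enzymes (12 higher and 5 lower of 20), and the tie was settled by name. Those 2 shares are 45.8% and 13.8% over all tested genes, and a family near them is like the background. The median over a family is given beside the 0.20 of all genes.

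Ribosomal protein genes, which encode the protein part of the ribosome, were largely higher in G34W. Of 262 tested ribosomal protein genes 222 were higher and 10 lower, and 176 were higher under both scalings. Their median was 0.43, and they summed to 51021 ± 419 TPM in G34W, against 39895 ± 250 TPM in wild type (SD, n = 3 each). RPS6, the small-subunit protein that is phosphorylated on growth signals, was at 374, 365 and 351 TPM in the G34W libraries, against 205, 214 and 222 TPM in wild type. The acidic ribosomal protein gene AT5G47700 averaged 361 ± 10.7 TPM in G34W and 219.5 ± 3.09 TPM in wild type. A few members lay the other way, RPL12-C at 634 ± 20.5 TPM in G34W and 748 ± 8.83 TPM in wild type, and RPS9, which fell by 0.20 ± 0.036. Both symbols are also used for proteins of the chloroplast ribosome. The site II core TGGGCC, counted on both strands of the 250 bases before the annotated start, was present at 49.2% of the 262 loci, against 16.9% of 18399 tested loci with a promoter. The telo box AAACCCTA was at 14.1% of them, against 3.51% of all. The 150 bases before the start of 2 named genes are shown with the site II core, on either strand, in capitals, on the minus strand of chromosomes 5 and 4, from the TAIR10.1 assembly.
AT5G47700: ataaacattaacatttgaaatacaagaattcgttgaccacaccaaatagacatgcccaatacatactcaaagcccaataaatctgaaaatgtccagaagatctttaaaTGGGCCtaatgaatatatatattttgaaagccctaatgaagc
RPS6: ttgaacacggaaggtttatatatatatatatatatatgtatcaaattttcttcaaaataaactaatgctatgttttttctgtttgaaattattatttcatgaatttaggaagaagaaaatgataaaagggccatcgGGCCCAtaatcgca
The same window of AT1G70600, another rising ribosomal protein gene, holds no site II core. The match is a description of the letters in these windows and not a test of a factor.

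Histone genes were higher to a larger extent. Of 42 tested genes 35 were higher and 2 lower, the median was 0.66, and 34 were higher under both scalings. The 2 lower genes were HTR4 and HTR8. Their sum was 6170 ± 85.1 TPM in G34W, against 4002 ± 38.3 TPM in wild type. AT3G53730, a histone gene, was at 301, 294 and 312 TPM in the G34W libraries, against 67.6, 71.1 and 69.2 TPM in wild type. HTB9, an H2B gene, averaged 450 ± 11.1 TPM in G34W and 226 ± 9.21 TPM in wild type. The H2A genes HTA9 and HTA12 differed by 0.08 and -0.04 and did not pass the test, and HTA9 was at -0.14 and past it after median-ratio scaling. The histone octamer motif CGCGGATC, on either strand, was in 21.4% of the 250-base windows of histone genes, against 0.158% of all tested loci.

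Genes of the photosynthetic light reactions stood below wild type. Of 54 tested genes of the photosystems and their antennae 45 were lower and 3 higher, under both scalings 45 and 2, with a median of -0.29. Summed, they held 195853 ± 952 TPM in G34W, against 236300 ± 1375 TPM in wild type. LHCB2.3, an antenna protein of photosystem II, was at 1585, 1549 and 1599 TPM in the G34W libraries, against 2919, 3032 and 2961 TPM in wild type. LHB1B1, another antenna gene, fell by 0.77 ± 0.020. LHCB2.2 fell by 0.51 ± 0.015 and LHCB2.1 by 0.50 ± 0.017. The exceptions were PSBP-2, an oxygen-evolving complex protein, at 20.2 ± 0.944 TPM in G34W and 7.95 ± 0.715 TPM in wild type, LHCB4.3, at 17.4 ± 1.71 TPM in G34W and 8.55 ± 0.651 TPM in wild type, and CAB3, which was 0.16 ± 0.016 higher as deposited but -0.061 after median-ratio scaling. The size of the family's median depended on scaling and was -0.085 relative to all genes after quantile normalization, against -0.49 in the deposited values. Outside this family, RCA, the activase of Rubisco, fell by 0.32 ± 0.014, and RBCS1A, a Rubisco small subunit, was 0.08 ± 0.019 higher as deposited and -0.14 after median-ratio scaling. The G box CACGTG was in 20.4% of the 250-base windows of the light-reaction genes, against 7.54% of all tested loci, and LHCB2.3, on the plus strand of chromosome 3, has one in the 150 bases shown, in capitals. The windows of LHCB2.2 and LHB1B1 hold none.
LHCB2.3: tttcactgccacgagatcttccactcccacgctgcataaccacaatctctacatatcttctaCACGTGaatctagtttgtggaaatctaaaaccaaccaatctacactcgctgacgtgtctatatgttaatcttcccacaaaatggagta

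The RNA came from whole seedlings, and fewer cells of a type and less RNA per cell cannot be told apart. Markers of root tissue and of leaf tissue moved with the groups. Over all tested genes 45.8% were higher and 13.8% lower as deposited, and the marker counts stand beside these shares. All 9 tested root hair markers of 10 were higher, with sums of 61.7 to 67.2 TPM in the G34W libraries, against 22.5 to 24.1 TPM in wild type. PRP1 and RSL4 among them averaged 0.767 and 0.628 TPM in wild type. They reached the mean of 1 TPM only through G34W, so the filter favoured a higher call for them. Of 8 tested root endodermis markers of 9, 6 were higher, with sums of 125 to 132 TPM in G34W, against 74.9 to 79.2 TPM in wild type. Of 10 leaf mesophyll markers 9 were lower and 1 higher, and their sums were 67334 to 68475 TPM in G34W, against 79770 to 80059 TPM in wild type. Most of this list are antenna and photosystem genes, so it largely repeats the light-reaction result above. Of its members outside them, CA1 fell by 0.47 ± 0.020 and RBCS1A was 0.08 ± 0.019 higher as deposited. The guard cell list gave 4 lower of 7 tested, with sums of 55.7 to 56.2 TPM in G34W and 78.5 to 84.2 TPM in wild type. None of the 6 root cap markers reached the mean of 1 TPM, and STK among floral organ markers and CRB, SESA1 and SESA3 among seed markers were at 0. Of 4 tested seed markers 2 were higher and 2 lower, and the 1 tested floral organ marker was higher as deposited but not under both scalings. The seed markers CRA1 and OLEO4 averaged 0.304 and 0.899 TPM in wild type, and OLEO2 0.642 TPM in G34W. Each was tested only through its values in the other group. The part of these tissues in the family results was not tested.

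Class III peroxidases, lipid-transfer-like proteins and glutathione transferases were largely higher by count. Class III peroxidases, which use hydrogen peroxide to cross-link wall polymers, had 36 higher and 5 lower of 46 tested, with a median of 0.91 and 32 higher under both scalings. AT2G37130 was at 115, 117 and 113 TPM in the G34W libraries, against 35.5, 40.3 and 38.4 TPM in wild type. AT5G64120 went the other way, averaging 15.9 ± 0.369 TPM in G34W and 37.3 ± 5.31 TPM in wild type. Lipid-transfer and 2S albumin-like genes had 33 higher and 9 lower of 49 tested, with a median of 0.75. Their summed TPM were nevertheless lower in G34W, 7737 ± 34.6 TPM against 8460 ± 14.8 TPM in wild type, and abundant members such as AT2G45180 (2446 ± 25.1 TPM in G34W, 3274 ± 42.3 TPM in wild type) and LP1 (1396 ± 22 TPM in G34W, 1683 ± 56 TPM in wild type) were among the lower ones. LTP6 averaged 172 ± 6.79 TPM in G34W and 57.8 ± 5.88 TPM in wild type. Glutathione transferases, which join glutathione to small molecules, had 25 higher and 5 lower of 41 tested, with a median of 0.49, and 21 and 8 after median-ratio scaling. GSTF10 was at 269, 275 and 276 TPM in the G34W libraries, against 139, 138 and 121 TPM in wild type, and GSTU18 fell by 0.56 ± 0.046.

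Glucosinolate genes, which make and break down the mustard-oil glucosides of the cabbage family, moved both ways. Of 28 tested members, a set that also holds branched-chain amino acid enzymes of the same kind, 19 were higher and 6 lower, with a median of 0.43, and 14 and 8 after median-ratio scaling. NSP1, a nitrile specifier protein of glucosinolate breakdown, was at 429, 436 and 451 TPM in the G34W libraries, against 278, 284 and 282 TPM in wild type. The methyltransferases of indole glucosinolates differed among themselves. IGMT5 averaged 58.5 ± 0.317 TPM in G34W and 16.3 ± 2.4 TPM in wild type, and IGMT4 fell by 0.94 ± 0.039. Of the myrosinases, which release the mustard oils, TGG1 and TGG2 fell by 0.29 ± 0.019 and 0.51 ± 0.037, and the genes for TGG4 and TGG5, listed as BGLU34 and BGLU35, were 1.29 ± 0.14 and 1.22 ± 0.12 higher.

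**Figure D2:**
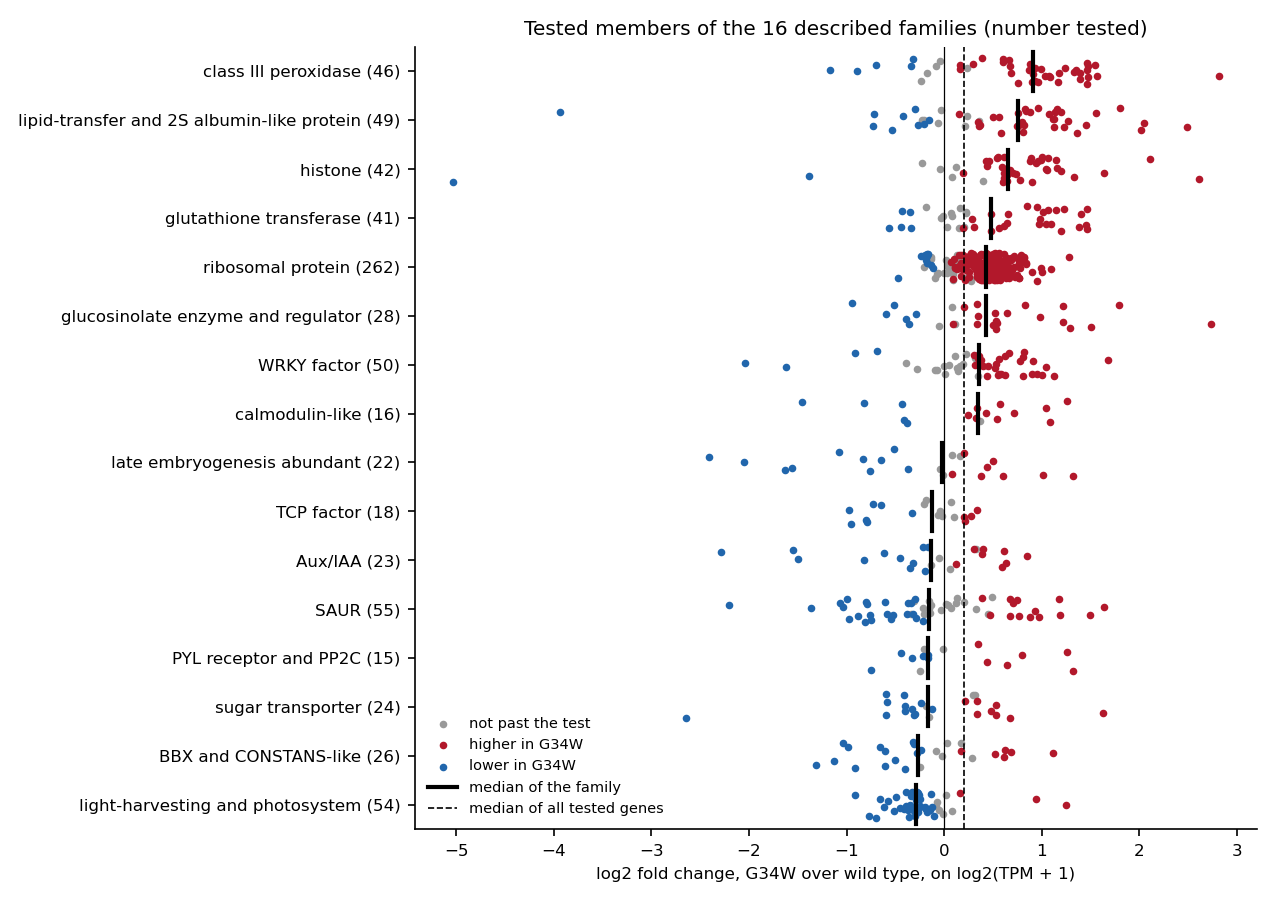
Log2 fold change of G34W over wild type (x axis) for each tested member of 16 gene families (rows). Red points were higher and blue points lower at an adjusted p under 0.05, gray points did not pass, thick bars are family medians and the dashed line is the median of all tested genes, 0.20. The points of the light-harvesting family lie mostly left of 0 and those of the ribosomal family right of the dashed line.

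Calmodulins and calmodulin-like proteins sense calcium. Of 16 tested genes 10 were higher and 5 lower. CAM1 was at 59.0, 62.6 and 60.3 TPM in the G34W libraries, against 39.4, 35.6 and 34.9 TPM in wild type, and CAM1 to CAM7 were all higher, by 0.24 to 0.71, although CAM3, CAM5 and CAM7 were not past the test after median-ratio scaling. CML23, CML38, TCH2, TCH3 and CAM9 fell, CML23 by 1.46 ± 0.10. The calmodulin-like genes CML41, CML42 and CML43 were higher, CML42 at 11.9 ± 1.1 TPM in G34W and 4.41 ± 0.876 TPM in wild type, the highest fold change of the family. TCH2 and TCH3 are known as genes induced by touch. The abscisic acid receptors of the PYR1/PYL/RCAR family inhibit the clade A phosphatases when the hormone is bound. Of the 15 tested genes of both kinds, 6 receptor genes were higher (PYL5, PYL6, PYR1, PYL4, RCAR3 and PYL1) and RCAR1 fell. The other 5 that fell were phosphatase genes (PP2CA, HAB2, ABI2, ABI1 and HAB1). PYL5 was at 94.7, 97.9 and 94.1 TPM in the G34W libraries, against 36.8, 37.4 and 38.4 TPM in wild type. PP2CA averaged 47.9 ± 5.12 TPM in G34W and 80.7 ± 3.43 TPM in wild type. PYL1, higher by 0.34 as deposited, was not past the test under median-ratio scaling, where 5 of the 6 higher calls and all 6 lower calls stood.

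**Figure D3:**
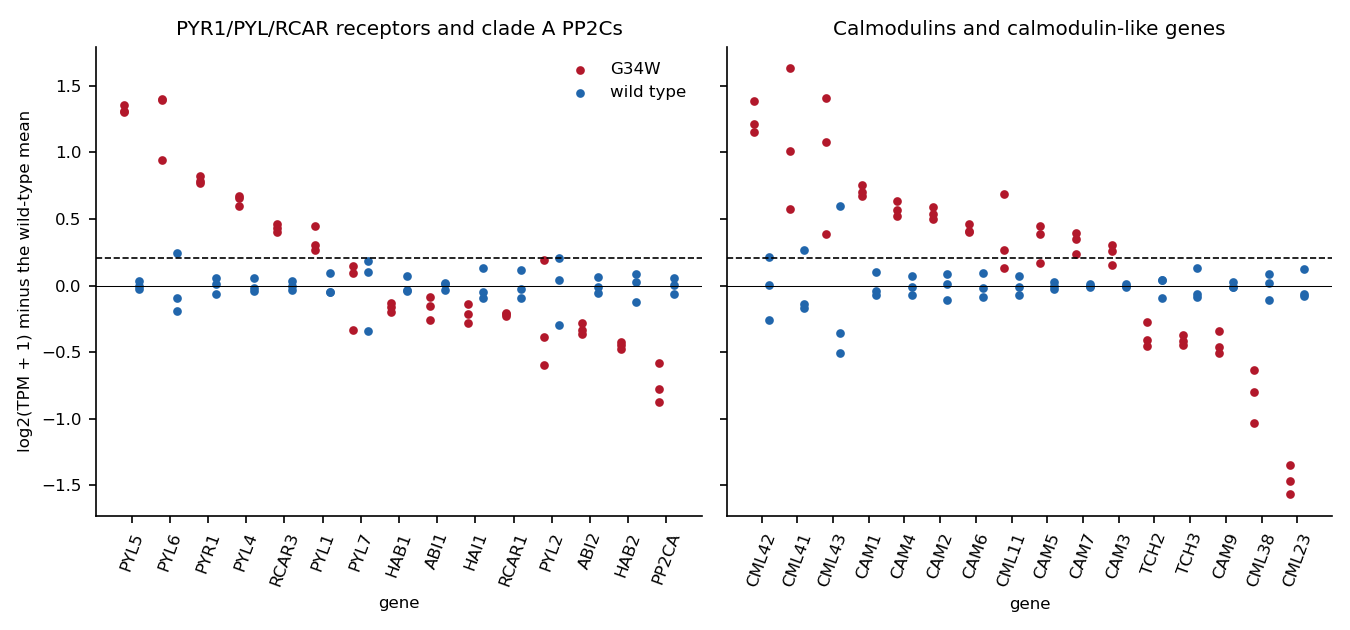
Log2(TPM + 1) of each library minus the wild-type mean for the abscisic acid receptor and phosphatase genes (left) and the calmodulin and calmodulin-like genes (right), ordered by fold change. Red points are G34W, left of the blue wild-type points of the same gene, and the dashed line is the median of all tested genes; PYL5 lies highest in the left panel and CML23 lowest in the right.

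Growth and light regulators were lower more often than the background. Of 26 tested B-box and CONSTANS-like genes, which act in light and day-length responses, 14 were lower and 6 higher, with a median of -0.27, and 18 and 4 after median-ratio scaling. BBX16 was at 89.0, 92.2 and 90.3 TPM in the G34W libraries, against 200, 199 and 198 TPM in wild type. COL2 fell by 0.92 ± 0.038 and COL5 by 0.60 ± 0.026, and LZF1 was 1.11 ± 0.13 higher. TCP factors, regulators of leaf growth and branching, had 7 lower and 4 higher of 18, and after median-ratio scaling 11 were lower and the 4 no longer passed the test as higher. TCP14 averaged 65.5 ± 3.66 TPM in G34W and 103 ± 1.47 TPM in wild type.

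Auxin-response families had members on both sides, with more of them lower. Of 23 tested Aux/IAA repressors 11 were lower and 8 higher, and 13 and 5 after median-ratio scaling. IAA14 was at 27.1, 21.5 and 22.7 TPM in the G34W libraries, against 65.4, 66.0 and 75.0 TPM in wild type. IAA29 fell by 2.29 ± 0.14, and IAA9 was 0.64 ± 0.037 higher. Of 55 tested SAUR genes, small proteins that promote cell expansion, 23 were lower and 14 higher. SAUR24 averaged 30.5 ± 3.65 TPM in G34W and 60.9 ± 2.27 TPM in wild type, and AT4G34770 averaged 15.5 ± 2.87 TPM in G34W and 4.29 ± 0.615 TPM in wild type. Of 24 tested sugar transporters 12 were lower and 8 higher, and 14 and 5 after median-ratio scaling. They included the phloem-loading genes SUC2, SWEET11 and SWEET12, which were all lower, SUC2 by 0.59 ± 0.038. SAG29, a SWEET gene also known as SWEET15, averaged 0.24 ± 0.244 TPM in G34W and 6.67 ± 0.617 TPM in wild type.

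Stress-linked families had members on both sides. Of 22 tested late embryogenesis abundant and cold-regulated genes 10 were lower and 8 higher, and 13 and 5 after median-ratio scaling. COR15A, a cold-induced chloroplast protein, averaged 1.71 ± 0.134 TPM in G34W and 10.2 ± 0.854 TPM in wild type. SAG21 was at 238, 251 and 255 TPM in the G34W libraries, against 103, 86.9 and 107 TPM in wild type, and ERD14 and ERD15 were 0.50 ± 0.028 and 0.44 ± 0.026 higher. Of 50 tested WRKY factors 30 were higher and 4 lower, and 17 and 8 after median-ratio scaling. WRKY70 and WRKY33, known regulators of defence, were among the lower, WRKY70 at 7.21, 5.42 and 5.75 TPM in the G34W libraries, against 27.5, 29.4 and 27.6 TPM in wild type.

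Highly expressed genes were lower more often than weakly expressed ones. The 410 genes averaging 300 TPM or more held 47.9% ± 0.115 of all TPM in G34W, against 52.8% ± 0.151 in wild type (SD, n = 3 each). Their median fold change was -0.07, and 49.8% of them were lower and 37.8% higher. Many of the photosystem and antenna genes described above lie in this class, with a family median of 2559 TPM in G34W. That family summed to 195853 TPM in G34W, against 236300 TPM in wild type. The class without these genes was not examined. Median changes stepped down from the class of 3 to 10 TPM, where the median was 0.25, through 0.21, 0.16 and 0.09 in the next 3 classes. The direction for the highest class against the lowest kept its sign in every alternative that gave it, from -0.054 with quantile normalization to -0.45 in a test of recovered reads. With a filter at 5 TPM it could not be given. A scaling common to all genes largely cancels in this difference, so the kept sign is no separate support. Classes use the mean over both groups. The median SE was 0.19 in the class of 1 to 3 TPM and 0.026 in the highest class. Genes not called numbered 1492 of 2516 and 51 of 410 in these classes. The part of this difference in the shares called was not tested.

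Large changes were most frequent among the shortest genes. In 5 equal classes of gene span, introns included, 4.94% of the shortest genes were higher and 3.94% lower past 1 on the log2 scale, against 0.598% and 0.734% of the longest. The median fold change was 0.26 in the shortest class and 0.15 in the longest. Within single expression classes the order was alike. In the class of 10 to 30 TPM, for example, 4.92% of the shortest genes were higher past 1, against 0.344% of the longest. Across 18400 genes Spearman's rho between span and the size of the change, measured from the median of all genes, was -0.23; genes share libraries and are not independent. The median read number per library differed between the span classes, 95.2 in the shortest and 419.5 in the longest, and its part in this result was not tested. Genes of 1 exon had 3.77% higher and 3.63% lower past 1, and genes of 11 to 79 exons 0.613% and 0.646%.

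**Figure D4:**
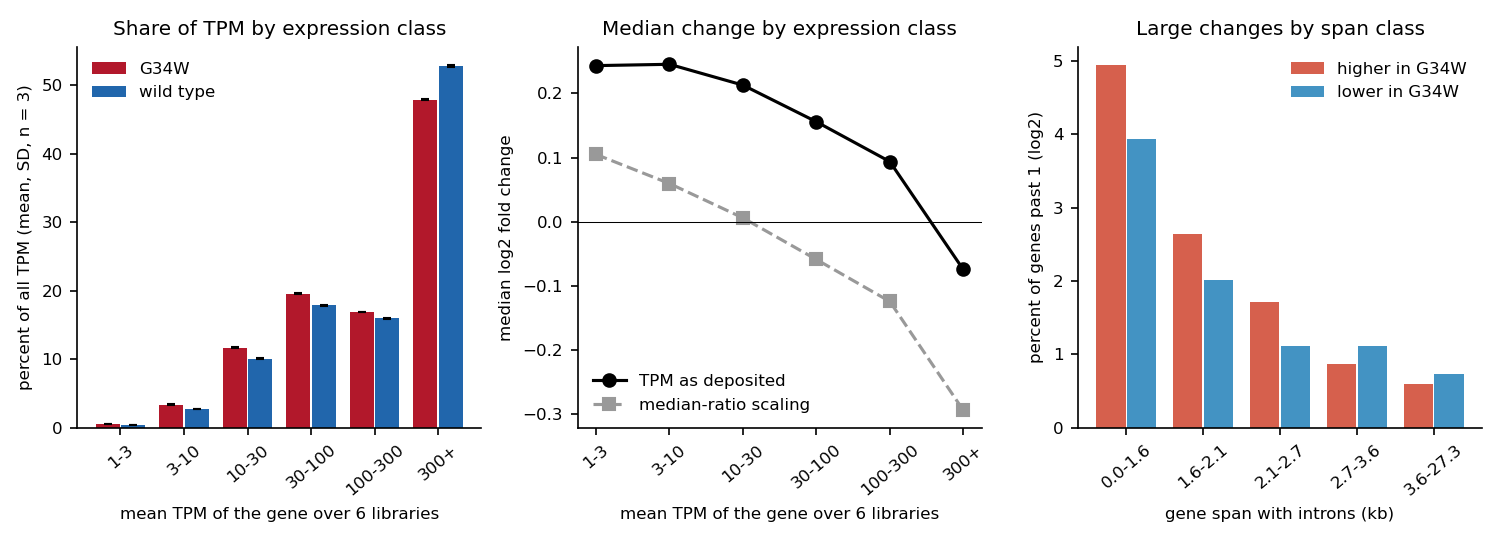
Left, percent of all TPM in 6 classes of mean TPM (mean and SD over 3 libraries) in G34W (red) and wild type (blue); middle, median log2 fold change of the same classes as deposited and after median-ratio scaling; right, percent of genes past 1 on the log2 scale, higher or lower in G34W, in 5 classes of gene span. The class of at least 300 TPM holds 47.9% in G34W against 52.8% in wild type, and large changes are most frequent in the shortest genes, at 4.94% higher and 3.94% lower.

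Of 10221 loci without a symbol 44.1% were higher and 12.3% lower, against 48.0% and 15.6% of the 8258 with a symbol. Large falls were more frequent among the 946 loci whose product is given as uncharacterized protein, at 4.76%, against 1.8% of all tested genes. Large rises were at 2.85% of those loci. Their median read number per library was 80.7, against 226 for all tested genes.

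Adjacent genes with the same product name were called together more often than other adjacent genes, in the same and in opposite directions. Of 344 such adjacent pairs 18.3% were both higher under both scalings and 7.85% both lower, against 7.42% and 2.43% of 13055 adjacent pairs with different product names. Pairs called in opposite directions made up 10.5% of the same-product pairs and 5.58% of the others, and none of these shares was tested. Runs of at least 3 neighbours, called in the same direction under both scalings, numbered 12, of which 10 were higher and 2 lower, with 37 loci in all. Over all tested genes 24.5% were higher and 13.8% lower under both scalings. The split of the runs was not tested against these shares and is no separate result. The thioredoxin run of AT4G15680, AT4G15690 and AT4G15700 averaged 4.69 ± 0.803, 6.4 ± 0.783 and 3.41 ± 0.498 TPM in G34W, against 0.527 ± 0.578, 1.11 ± 0.736 and 0.494 ± 0.439 TPM in wild type. AT4G15680 and AT4G15700 reached the mean of 1 TPM only through G34W. The coding sequences of the thioredoxin run were 89.0% to 91.3% identical. The jacalin-type run of JAL33, JAL34 and JR1 was higher by 0.66 ± 0.030, 0.32 ± 0.029 and 0.64 ± 0.036 with identities of 30.9% to 43.1%. After median-ratio scaling JAL33, JAL34 and JR1 were higher by 0.446, 0.0969 and 0.421. In the SAUR run of SAUR19, SAUR20 and AT5G18030, 89.5% to 93.8% identical, the fall was 0.79 ± 0.098, 0.997 ± 0.081 and 1.04 ± 0.095. Reads can be exchanged between near-identical copies, so single members of the thioredoxin, SAUR and similar runs are uncertain.

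**Figure D5:**
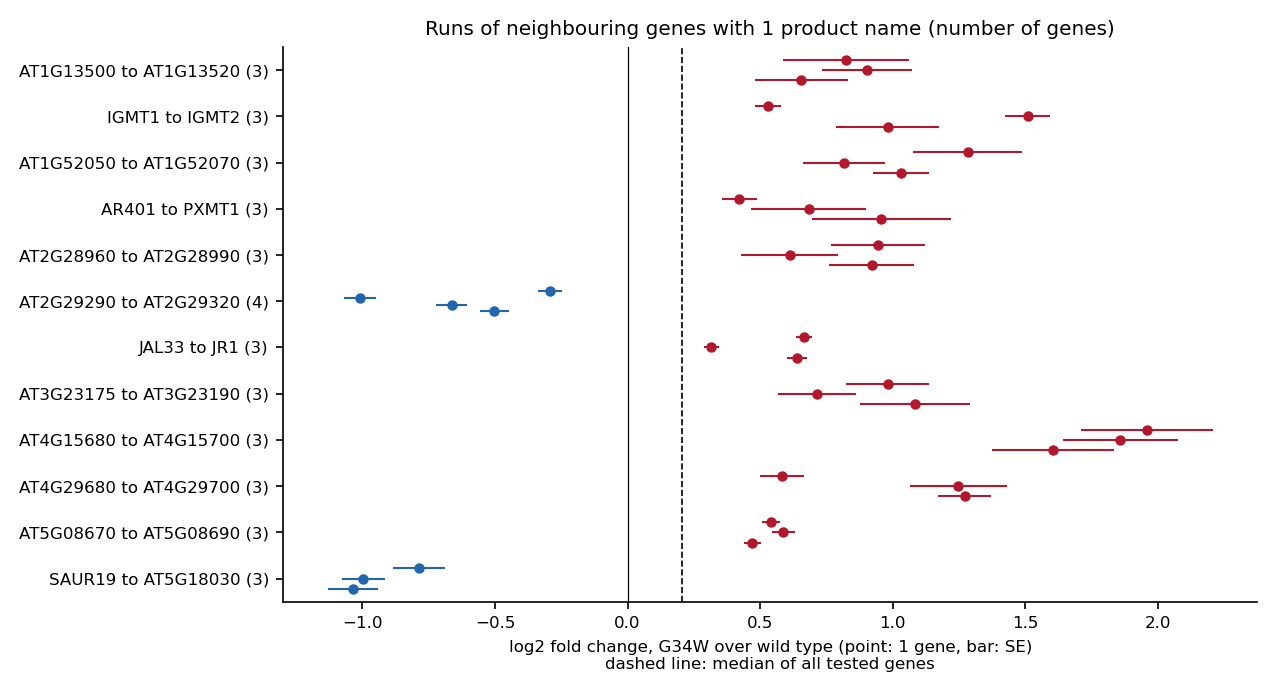
Log2 fold change of G34W over wild type with its SE for each gene of the 12 runs of at least 3 neighbours that share a product name and a direction. Red runs were higher and blue runs lower, and the run from AT4G15680 to AT4G15700 lies farthest right, at 1.6 to 1.96.

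The G34W and G34R lines were also compared directly, over the 18588 genes that averaged 1 TPM or more in their 6 libraries. 3802 genes (20.5%) were higher in G34W and 2187 (11.8%) lower, and 2625 (14.1%) and 3031 (16.3%) after median-ratio scaling. Among genes described above, AT1G53200 was 5.06 ± 0.071 higher in G34W than in G34R, AT5G55450 2.50 ± 0.11 higher and LBD41 2.16 ± 0.089 higher. AT3G44970 was 2.68 ± 0.17 lower in G34W than in G34R, at 0.0562 to 0.215 TPM in the G34W libraries against 5.41 to 6.86 TPM in G34R. IMS2 and IRT3 differed by 0.03 ± 0.092 and -0.01 ± 0.074 and did not pass this test.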

How the data were processed

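The authors deposited TPM per locus for all libraries, in columns whose names end in geneCounts, and each library sums to 1000000 TPM. Reads were processed with fastp 0.20.1, HISAT2 2.1.10 and DESeq2 1.26.0, per the submitters' processing notes, which name TAIR10. The labels' protocols name total RNA and the NEBNext Ultra RNA library kit, and the counter and its use of strand are not given in the sources used. Whole reads (tolerance 1e-06) were recovered from the TPM for 100% of the 23235 genes above 0, and for 99.4% the length this implies is the gene span with introns. One read is worth more TPM in a short gene, and 3 reads in 1 kb are 0.450 to 0.478 TPM in G34W libraries.

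The 18479 genes at or above 1 TPM on average were fitted with limma 3.58.1 (R 4.3.3) on log2(TPM + 1) with an intensity trend, G34W minus wild type, and p-values were adjusted by the Benjamini-Hochberg method at 0.05. Tables were made in Python 3.11.15 with pandas 2.3.3 and numpy 2.4.6, and the fit was tested on simulated data. Identifiers, spans and sequences come from RefSeq of TAIR10.1, to which 27445 loci matched. The 79 tested loci without a span there lie in organelle genomes.

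Members and lists were chosen with earlier results of these data known. Named genes are the 15 largest rises and falls among genes averaging 5 TPM or more, the 8 largest of each without a symbol, the 5 largest of each in TPM, 3 members of each described family and the H3.3 genes. Other members were named after their values were seen, as were the neighbouring loci, product groups, motifs and printed promoters. The name patterns of the 63 families were edited by product name after call numbers were seen, which put the late embryogenesis family in place of the beta-glucosidases among the 8 with the highest share lower. Of the markers, 5 were matched by hand. Replicates of one group differed by more than sampling noise (chi-square per degree of freedom 1.78 to 2.02). Alternatives were other scalings, pseudocounts, filters, voom on the recovered reads, a fit on all 9 libraries, a replicate block and leaving out each library.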

Additional observations from a re-analysis of the deposited data

How the results depend on the processing

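The family medians below are log2 fold changes of G34W over wild type minus the median of all genes. They kept their sign in all 15 alternatives in each of the 16 families. These families were chosen by their calls in the same data, and a scaling common to all genes largely cancels in these medians. The kept signs are therefore no separate support. Median-ratio scaling, quantile normalization and voom on recovered reads gave 4524, 4648 and 4774 higher genes and 4600, 4352 and 4983 lower genes, and the cause was not tested. WRKY members higher numbered 17, 15 and 18 under these, and 17 at a mean of at least 5 TPM, and TCP members lower 11 under each of the 3. Median-ratio scaling gave ribosomal 0.21 and light-harvesting -0.51. Quantile normalization gave ribosomal 0.33, histone 0.57, glutathione transferase 0.44, light-harvesting -0.085 and B-box -0.36. Voom gave peroxidase 0.78, glutathione transferase 0.34, WRKY 0.20, light-harvesting -0.51, B-box -0.52 and SAUR -0.45. Without a filter the values were ribosomal 0.27, peroxidase 0.74, glucosinolate 0.26, WRKY 0.20, light-harvesting -0.45, B-box -0.43, SAUR -0.32 and TCP -0.29. At 5 TPM they were glucosinolate 0.15, B-box -0.51, SAUR -0.50 and TCP -0.26. A pseudocount of 0.1 gave peroxidase 0.78, glutathione transferase 0.34, WRKY 0.19, light-harvesting -0.51, B-box -0.52, SAUR -0.44 and TCP -0.36. A pseudocount of 5 gave ribosomal 0.26, peroxidase 0.47, glucosinolate 0.18, lipid-transfer 0.32, glutathione transferase 0.34, WRKY 0.10, light-harvesting -0.43, B-box -0.40, sugar transporter -0.29, Aux/IAA -0.21, late embryogenesis -0.17, SAUR -0.23 and TCP -0.24. The highest minus the lowest expression class gave -0.40 (median ratio), -0.44 (pseudocount 0.1), -0.17 (pseudocount 5), -0.054 (quantile) and -0.45 (voom), and could not be given at 5 TPM. The longest minus the shortest span class gave -0.063 with a pseudocount of 5. Under median-ratio scaling and voom HTR5 was -0.030, RBCS1A -0.14 and CAB3 -0.061, each reversed. Leaving out 1 library gave 7585 to 7935 higher and 2317 to 2390 lower genes, SAUR -0.41 to -0.32, TCP -0.37 to -0.31, WRKY 0.15 to 0.20, calmodulin 0.12 to 0.22, peroxidase 0.65 to 0.72, glucosinolate 0.15 to 0.26, glutathione transferase 0.29 to 0.39, light-harvesting -0.50 to -0.48 and lipid-transfer 0.42 to 0.54. Same-numbered libraries of the 2 groups did not deviate together (r -0.0266 to 0.00542), and a fit with the replicate number as a block gave 8307 higher and 2495 lower genes. Depth limits weakly expressed and short genes most.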

Other observations

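Loci without reads in one group were few. FLC, the floral repressor, had 0 reads in each G34W library, against 94, 104 and 81 reads in the wild-type libraries, which with a floor of 3 reads per library puts it at least 32.2-fold lower in G34W. PRB1, a pathogenesis-related gene, was likewise at least 7.45-fold lower and AT3G53250, a SAUR gene, at least 7.22-fold lower. These 3 are the genes at 0 in G34W with at least 10 reads in every wild-type library, and 1 gene, AT5G23115, was so the other way. In the G34R libraries FLC had 9, 13 and 12 reads, PRB1 8, 8 and 9, and AT3G53250 5, 3 and 4. AT5G23115 had 5, 5 and 6 reads there. For each of these genes the TPM of every G34R library lay between those of G34W and wild type. The genes were chosen for 0 reads in one group, so no G34R library could lie beyond that group.

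Of 113 groups of loci that share a product name, some with many called members are given here, chosen after their values were seen. Dirigent-like genes, whose proteins steer the coupling of phenols, had 14 higher and 2 lower of 18, and aspartyl proteases 27 higher and 4 lower of 39 (20 and 6 after median-ratio scaling). Berberine-bridge-type oxidases had 10 higher and 4 lower of 15. HAD hydrolases had 10 higher and 14 lower of 36 as deposited, and 3 and 20 after median-ratio scaling. NPH3 genes, of a family known from bending toward light, had 8 higher and 10 lower of 27, and 3 and 11 after that scaling. Over all tested genes 45.8% were higher and 13.8% lower.

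Other families among the 63 are given as values. Over all tested genes 45.8% were higher and 13.8% lower as deposited, and 24.5% and 24.9% after median-ratio scaling. SET-domain genes, a family that holds the histone lysine methyltransferases, had 14 higher (43.8%) of 32 tested, near the share of all tested genes. The other 18 did not pass the test as deposited. After median-ratio scaling 4 were higher and 3 lower. Cyclin and cyclin-dependent kinase genes, which drive the cell cycle, had 23 higher (47.9%) and 3 lower (6.25%) of 48 as deposited. Their share higher was near that of all tested genes. After median-ratio scaling 16 (33.3%) were higher and 5 (10.4%) lower. Metal transporters had 27 higher and 6 lower of 49, and 20 and 12 after it. Cytochrome P450 genes had 61 higher (38.9%) and 43 lower (27.4%) of 157 as deposited. The share higher was thus below that of all tested genes, and the share lower above it. After median-ratio scaling 52 (33.1%) were higher and 57 (36.3%) lower, both above the shares of all tested genes.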
